A study of Mus musculus with 27 samples.

Results

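A set of 9 genes that steer fuel use in skeletal muscle were followed through volumetric muscle loss (VML), an injury in which a large part of a muscle is cut away and the gap does not refill. The 9 genes, chosen by their symbols out of 54532 gene rows in the expression table, were Bdh1, Oxct1 and Acat1 of ketone body use, Mlycd and Acacb of malonyl-CoA turnover, and Lpin1, Pdk4, Ucp3 and Angptl4, which respond to fasting and to changes between fuels. All 9 were found on 1 row each, and all 9 were among the 14630 genes that passed the filter on low values (0.5 FPKM or more in 5 or more samples, FPKM being read fragments scaled to gene length and library size). They were picked with results from these same samples known, so their differences between groups are descriptions. Where a member is said below to be called, that says only which side of the threshold its limma value lay on, and no p-value is given for it.

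The samples were 27 tibialis anterior muscles of 8-week-old male C57BL/6 mice in 5 groups. The 5 control muscles were left uninjured, and the 4 injured groups had lost 40% of the tibialis anterior by excision and were taken 3 days (n = 5), 7 days (n = 6), 14 days (n = 6) or 21 days (n = 5) later. Whole explanted muscle was lysed, so each value is an average over fibres, invading leukocytes, connective tissue and vessels. The injury groups had no sham surgery among the samples used here, and the labels do not say how many animals the muscles came from. The study's methods describe the excision as made in both legs and the series' design text as made in 1 leg, so some muscles of a group may share an animal. In that case the samples are not independent and the SE values and p-values are too small.

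Muscle burns glucose, fatty acids and ketone bodies, and it chooses among them by a few enzymes. In ketone body use, Bdh1 (3-hydroxybutyrate dehydrogenase) oxidizes 3-hydroxybutyrate to acetoacetate, Oxct1 (succinyl-CoA:3-oxoacid CoA transferase) activates acetoacetate, and Acat1 (mitochondrial acetyl-CoA acetyltransferase) splits the product into acetyl-CoA. Malonyl-CoA, made at the mitochondrial surface by Acacb (acetyl-CoA carboxylase beta) and removed by Mlycd (malonyl-CoA decarboxylase), blocks the entry of long-chain fatty acids into mitochondria. Pdk4 (pyruvate dehydrogenase kinase) shuts off the entry of pyruvate, Ucp3 is a mitochondrial carrier that rises in fasting, Lpin1 (lipin) makes diacylglycerol and acts as a coactivator, and Angptl4 is a secreted inhibitor of lipoprotein lipase.

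The genes lie on 9 different chromosomes (GRCm38). Bdh1 is at chr16:31422280-31458901, Oxct1 at chr15:4026383-4155344, Mlycd at chr8:119394878-119411102, Acacb at chr5:114146535-114250761 and Ucp3 at chr7:100472990-100486432, all on the forward strand. Acat1 is at chr9:53580522-53610382, Lpin1 at chr12:16535669-16610966, Pdk4 at chr6:5483351-5496309 and Angptl4 at chr17:33773750-33781575, all on the reverse strand. The libraries did not keep strand, and exons of Bdh1 and Oxct1 share 533 and 467 bases with the antisense genes Gm15743 and BC037032. These antisense genes reached at most 0.427 and 0.342 FPKM in any sample.

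Upstream sequence was available for 7 of the 9 genes (RefSeq, GRCm38.p6), and the 250 bases before the start were searched on both strands for the nuclear receptor half-site AGGTCA, the glucocorticoid receptor half-site TGTTCT, the FoxO core GTAAACA, the E-box CACGTG and the GC box GGGCGG. Of the 7 genes, 3 held a match, and the sequences of Bdh1 (2 starts), Oxct1, Acacb and Pdk4 held none of the 5 motifs. The 3 with a match, shown in capitals, are printed below with Pdk4 as an example without one. Ucp3 had AGGTCA at 2 places, Lpin1 had AGGTCA and TGTTCT, and Mlycd had TGTTCT on the opposite strand (read as AGAACA).
Ucp3, chr7:100472741-100472990, forward strand: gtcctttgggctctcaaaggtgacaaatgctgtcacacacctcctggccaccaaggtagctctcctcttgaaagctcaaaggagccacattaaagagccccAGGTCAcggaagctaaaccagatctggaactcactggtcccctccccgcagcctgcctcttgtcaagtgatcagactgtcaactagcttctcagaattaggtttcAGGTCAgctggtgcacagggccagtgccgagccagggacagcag
Lpin1, chr12:16610967-16611216, reverse strand: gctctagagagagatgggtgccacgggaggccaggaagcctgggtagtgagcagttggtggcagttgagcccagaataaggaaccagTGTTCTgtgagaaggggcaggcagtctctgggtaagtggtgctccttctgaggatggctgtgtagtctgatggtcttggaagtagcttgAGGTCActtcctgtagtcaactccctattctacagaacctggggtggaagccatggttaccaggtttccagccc
Mlycd, chr8:119394644-119394893, forward strand: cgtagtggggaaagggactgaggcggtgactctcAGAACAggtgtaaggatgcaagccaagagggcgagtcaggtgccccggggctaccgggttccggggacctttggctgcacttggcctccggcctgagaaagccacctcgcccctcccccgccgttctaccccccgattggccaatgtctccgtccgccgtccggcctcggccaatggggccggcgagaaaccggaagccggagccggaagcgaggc
Pdk4, chr6:5496279-5496528, reverse strand: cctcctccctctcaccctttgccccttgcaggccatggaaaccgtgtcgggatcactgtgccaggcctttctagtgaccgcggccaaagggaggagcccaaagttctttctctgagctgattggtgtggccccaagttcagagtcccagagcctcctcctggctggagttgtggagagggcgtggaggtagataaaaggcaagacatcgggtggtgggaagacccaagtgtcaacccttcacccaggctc

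The AGGTCA matches of Ucp3 were at -149 to -144 and -44 to -39 from the start, and that of Lpin1 was at -74 to -69. AGGTCA was present in 14% of 32851 mouse promoters of the same length and TGTTCT in 16.1%, so a match in a window of this size is common. The FoxO core (3.17% of promoters), the E-box (6.02%) and the GC box (32.7%) were in none of the 8 upstream sequences of the 7 genes. These are matches of letters in a short window, and binding at them was not measured.

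The levels were deposited as FPKM, which allows genes to be compared per length. Library totals recovered from the values were 14376395 to 24436763 reads (median 17398586). The divisor behind the FPKM values was not the plain total: it averaged 0.782 of the total in uninjured muscle and 1.25, 1.18, 1.04 and 0.897 of it at day 3, 7, 14 and 21. Of the 27 samples, 9 lay nearer to the mean profile of another group than to their own, among them day 3 replicate 5, nearest to day 7, and day 7 replicate 5, nearest to day 3. The 16 muscle fibre marker genes, such as Ckm and Acta1, had a mean level of 11.50 (log2(FPKM + 1)) in uninjured muscle, and this was 10.18, 10.61, 10.93 and 11.15 at day 3, 7, 14 and 21. In whole muscle, fewer fibres and less RNA of a gene per fibre cannot be told apart.

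At day 3, 8 of the 9 genes were lower than in uninjured muscle and 1, Angptl4, was higher. In this comparison limma (Benjamini-Hochberg adjusted p under 0.05) called all 9, against 43.2% of all tested genes (23.4% higher and 19.8% lower). For all 9 genes the day 3 and uninjured muscles did not overlap, where 16.5% of all genes were lower without overlap and 19.8% higher. On day 7 it called 8, all lower (background 29.4%, 14.4% lower), and 8 were lower without overlap (5.37%). On day 14 it called 7, all lower (background 20.3%, 11.3% lower), the same number without overlap (8.05%), the exceptions being Pdk4 and Angptl4. Day 21 had 5 calls, all lower (background 3.43%, 1.69% lower), for Bdh1, Mlycd, Lpin1, Pdk4 and Ucp3, and 6 genes were lower without overlap (5.13%). Since the genes were chosen on these contrasts, nothing is read from those counts. Differences from uninjured muscle were taken on the log2(FPKM + 1) scale. The median of the 9 genes was -1.33 at day 3, -1.34 on day 7, -0.87 on day 14 and -0.68 at day 21. The median over all tested genes was between 0.01 and 0.03, a value that depends on the scaling. At day 3 it was 0.40 with plain library totals as divisor and 0.51 with all values rescaled to a common sum (TPM). Scaling samples by the median ratio of their genes to the geometric mean over samples left it at 0.01.

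**Figure D1:**
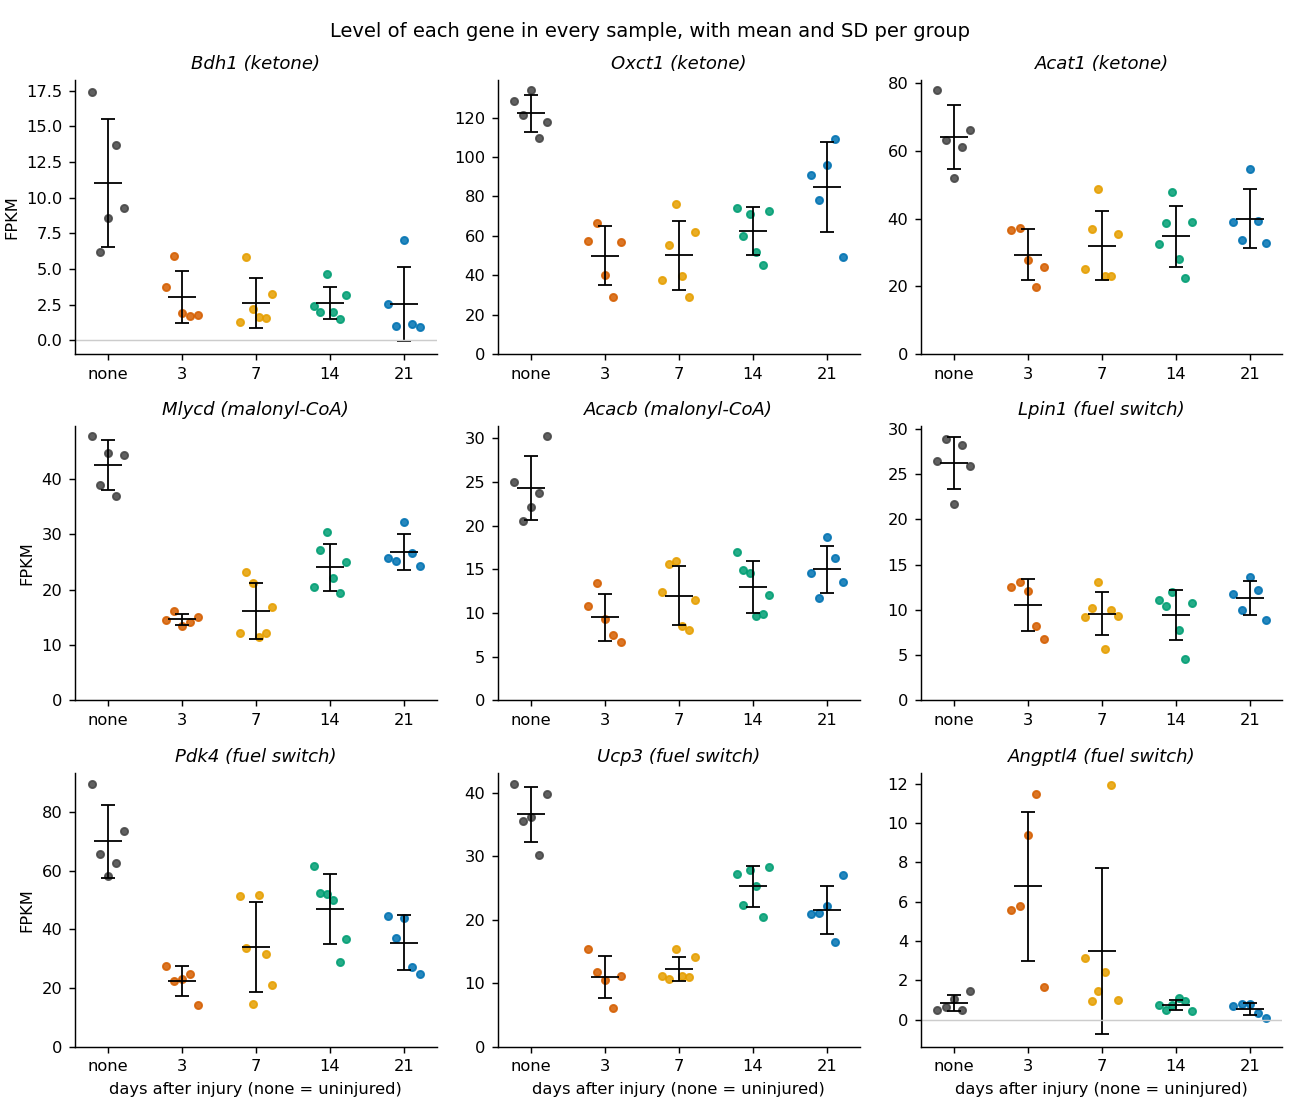
FPKM of each gene (vertical axes, linear) in every sample by days after injury (horizontal axes), 1 point per muscle, with horizontal lines for the group mean and bars for 1 SD. For 8 genes the highest mean was in uninjured muscle, and Angptl4 had its highest at day 3 (6.78 FPKM).

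Bdh1 had the lowest level of the 8 genes that were lower after injury, and its mean did not climb between day 3 and day 21. The uninjured muscles had 17.4, 6.202, 8.59, 13.7 and 9.31 FPKM, and the day 3 muscles had 3.76, 5.90, 1.92, 1.73 and 1.79 FPKM. On day 7 the values ran from 1.30 to 5.88 (median 1.91) and on day 14 from 1.49 to 4.62 (median 2.21). All 17 of these early and middle samples lay below the lowest uninjured muscle. At day 21 the values were 2.56, 0.985, 7.01, 1.15 and 0.922 FPKM, so 4 of 5 muscles lay below the uninjured range and replicate 3 lay inside it. The log2 difference from uninjured muscle was -1.61 ± 0.36 (SE) at day 3, -1.76 ± 0.35 on day 7, -1.71 ± 0.35 on day 14 and -1.94 ± 0.36 at day 21. The mean fell from 11.05 ± 4.47 FPKM (SD, n = 5) to 2.52 ± 2.60 (n = 5) at day 21, 22.9% of the uninjured mean. The means at day 3, 7, 14 and 21 differed by less than the SD within those groups.

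Oxct1, the committed step of ketone body use outside the liver, was the most abundant of the 9 per length. It had 122 ± 9.36 FPKM in uninjured muscle (109.7 to 134) and 49.9 ± 15.02 at day 3 (29.1 to 66.2). The means then stood at 50.01 ± 17.7 on day 7, 62.4 ± 12.2 on day 14 and 84.7 ± 22.7 at day 21. The day 21 muscles, at 91.0, 78.0, 95.7, 109.3 and 49.4 FPKM, were all below the lowest uninjured muscle, and replicate 4 lay just under it. Its log2 difference from uninjured muscle was -1.33 ± 0.24 at day 3 and -0.57 ± 0.24 at day 21, and the second was not called.

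Acat1, which ends ketone body breakdown and also isoleucine breakdown, had 64.1 ± 9.41 FPKM in uninjured muscle and 29.4 ± 7.42, 32.0 ± 10.2, 34.7 ± 8.99 and 39.9 ± 8.73 at day 3, 7, 14 and 21. No day 3, day 7 or day 14 muscle reached the uninjured minimum of 52.0 FPKM, and 1 of 5 day 21 muscles did, at 54.6. The 4 injured groups overlapped one another, and each step between neighbours in the order of means was within 1 SD. On the log2 scale it differed from uninjured muscle by -1.12 ± 0.22 at day 3 and -0.68 ± 0.22 at day 21.

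The malonyl-CoA pair moved together in direction: the enzyme that removes malonyl-CoA and the one that makes it were both lower in every injured muscle than in any uninjured muscle. Mlycd had 47.7, 38.9, 44.7, 36.8 and 44.2 FPKM in uninjured muscle and 14.5, 16.1, 13.4, 14.2 and 14.96 at day 3. The day 3 values were the tightest set of the 45 gene and group combinations, with a coefficient of variation of 6.76%. Mlycd then ran from 11.4 to 23.2 on day 7 (median 14.6) and from 19.3 to 30.3 on day 14 (median 23.5). At day 21 it had 25.6, 25.2, 32.2, 26.6 and 24.2 FPKM, above all 5 day 3 muscles and below all 5 uninjured ones. Its log2 difference went from -1.47 ± 0.16 at day 3 to -0.65 ± 0.16 at day 21. The day 21 call was lost without uninjured replicate 1, 3 or 5 or without day 21 replicate 1, 2 or 5.

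Acacb, the muscle form of acetyl-CoA carboxylase, had 24.3 ± 3.68 FPKM in uninjured muscle (20.6 to 30.2). It was lowest at day 3, at 9.497 ± 2.70, and its means on day 7, 14 and 21 were 11.99 ± 3.38, 12.99 ± 2.94 and 14.99 ± 2.66. Neighbouring groups after injury overlapped. The highest day 21 muscle, 18.7 FPKM, stayed below the lowest uninjured one. The log2 difference was -1.30 ± 0.20 at day 3 and -0.67 ± 0.20 at day 21, where it was not called.

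Lpin1 showed no climb over the time course. The uninjured muscles had 26.5, 28.9, 21.6, 28.2 and 25.9 FPKM, the day 3 muscles 12.5, 13.1, 12.1, 8.17 and 6.74, and the day 21 muscles 11.7, 9.93, 13.6, 12.2 and 8.83. On day 7 it ran from 5.66 to 13.1 (median 9.66) and on day 14 from 4.59 to 11.96 (median 10.6). All 22 injured muscles were therefore below all 5 uninjured ones, and the means of the 4 injured groups lay between 9.42 and 11.3 FPKM, within 1 SD of each other. Its log2 difference from uninjured muscle was -1.27 ± 0.21, -1.39 ± 0.20, -1.43 ± 0.20 and -1.16 ± 0.21 at day 3, 7, 14 and 21.

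Pdk4, the fasting-responsive kinase that turns pyruvate dehydrogenase off, had 89.6, 65.6, 58.4, 62.6 and 73.6 FPKM in uninjured muscle. At day 3 it had 27.6, 22.3, 23.05, 24.6 and 14.2, all below the uninjured range. Its spread then widened: day 7 muscles ran from 14.7 to 51.7 (median 32.6) and day 14 muscles from 28.7 to 61.7 (median 51.0), with 1 day 14 muscle inside the uninjured range. At day 21 the values were 44.7, 37.0, 44.01, 27.05 and 24.8. The mean was highest among injured groups on day 14 (46.9 ± 11.99) and not at day 21 (35.5 ± 9.29), but these groups overlapped and the step was within 1 SD. On the log2 scale it differed from uninjured muscle by -1.62 ± 0.27, -1.13 ± 0.26, -0.59 ± 0.26 and -0.98 ± 0.27 at day 3, 7, 14 and 21. The day 21 call was lost when any 1 of 17 samples was left out (all 5 uninjured, day 3 replicates 1 to 4, day 7 replicate 2, day 14 replicates 2 to 4, and day 21 replicates 1, 2, 4 and 5).

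Ucp3 stood at separate levels early and late after injury. The uninjured muscles had 41.4, 35.5, 36.1, 30.2 and 39.7 FPKM, and the day 3 muscles had 15.4, 11.8, 10.5, 6.08 and 11.2. Day 7 was still at 10.7 to 15.3 (median 11.1), and day 14 was at 20.4 to 28.3 (median 26.3), so the 6 day 14 muscles lay above all 11 of day 3 and day 7 and below all 5 uninjured ones. The day 21 muscles had 20.8, 21.1, 22.1, 16.5 and 27.03 FPKM, also between those ranges. The log2 difference was -1.69 ± 0.17, -1.51 ± 0.16, -0.52 ± 0.16 and -0.75 ± 0.17 at day 3, 7, 14 and 21. The day 14 difference was -0.05 with TPM and 0.04 after fibre marker subtraction, and its call was lost without uninjured replicate 1 or 5 or without day 14 replicate 5.

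Angptl4 was the one gene that was higher after injury, from a low base. The uninjured muscles had 0.503, 0.672, 1.04, 0.519 and 1.46 FPKM (21 to 70 reads), and the day 3 muscles had 5.6, 5.80, 9.37, 11.5 and 1.67 (117 to 858 reads). Every day 3 muscle was above every uninjured one, and the lowest, replicate 5, is the sample whose whole profile was nearest to day 7. On day 7 the values ran from 0.935 to 11.9 (median 1.93), and the highest was replicate 5, the sample nearest to day 3 by profile. On day 14 (0.439 to 1.12) and day 21 (0.109 to 0.8) the groups overlapped the uninjured range. Its log2 difference from uninjured muscle was 1.93 ± 0.38 at day 3, 0.95 ± 0.37 on day 7, -0.05 ± 0.37 on day 14 (above 0 under TPM, own library totals and fibre marker subtraction) and -0.24 ± 0.38 at day 21. Without day 3 replicate 5 and day 7 replicate 5 the day 3 and day 7 differences were 2.27 and 0.57.

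**Figure D2:**
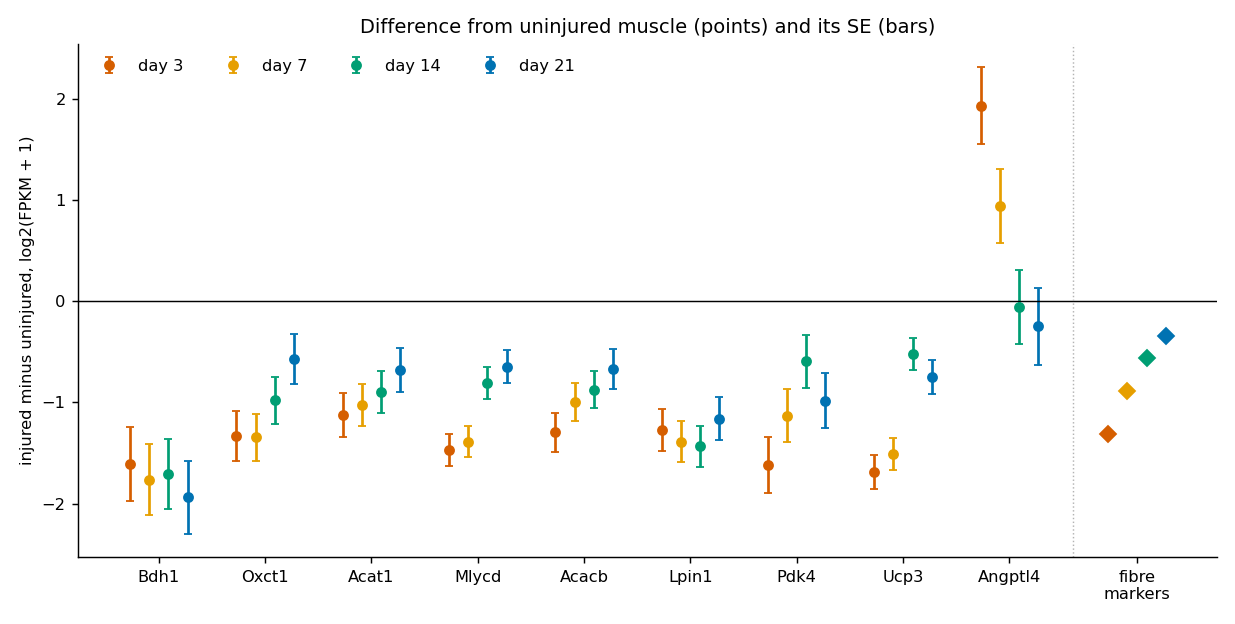
Difference of each gene from uninjured muscle on the log2(FPKM + 1) scale (vertical axis), with bars for 1 SE of the limma fit, and, at the right, the same difference of the mean of 16 muscle fibre markers (diamonds, no error shown). On the deposited scale Bdh1 and Lpin1 stayed between -1.94 and -1.16 at all 4 times, while the fibre markers went from -1.32 to -0.34.

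Between day 3 and day 21 the genes split into 3 sets. Oxct1 (0.76 ± 0.24), Mlycd (0.82 ± 0.16), Acacb (0.63 ± 0.20) and Ucp3 (0.94 ± 0.17) were higher at day 21 than at day 3 and were called, Angptl4 was lower (-2.18 ± 0.38) and was called, and Bdh1 (-0.33 ± 0.36), Acat1 (0.44 ± 0.22), Lpin1 (0.11 ± 0.21) and Pdk4 (0.64 ± 0.27) were not called. With TPM only Angptl4 was called (background 34.2%), and after fibre marker subtraction Bdh1, Acat1, Lpin1 and Angptl4 were, all lower (background 78.6%). On that last scale the 4 higher genes turned to between -0.35 and -0.03. The 5 of 9 stand against 25.5% of all tested genes (9.23% higher and 16.2% lower). Mlycd and Ucp3 were higher and Angptl4 lower without overlap, against 6.93% and 12.2% of all genes. For Lpin1 the 95% interval of the difference ran from -0.32 to 0.55 and for Bdh1 from -1.07 to 0.42. For Oxct1 the call was lost without day 3 replicate 3 or 4 or without day 21 replicate 3 or 4, and for Acacb without day 3 replicate 4 or 5 or without day 21 replicate 3.

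The fibre markers were also lower after injury and then climbed, which Bdh1 and Lpin1 did not. Of the 16 markers, 13 were lower at day 3, 7 on day 7, 2 on day 14 and 0 at day 21 by limma with Benjamini-Hochberg adjustment, and their summed level was 118726 to 136099 FPKM in uninjured muscle, 28342 to 86621 at day 3, 36286 to 136914 on day 7, 60525 to 139984 on day 14 and 102623 to 138819 at day 21. Their mean differed from uninjured muscle by -1.32, -0.88, -0.56 and -0.34 on the log2 scale at day 3, 7, 14 and 21. At day 3 that is close to the median of the 9 genes (-1.33). The marker mean of each sample was then subtracted from its gene levels. At day 3 Oxct1 then differed from uninjured muscle by -0.02, Acacb by 0.02, Lpin1 by 0.04 and Acat1 by 0.19. On the same scale Ucp3 was at -0.38, Pdk4 at -0.30, Bdh1 at -0.29 and Mlycd at -0.15. None of the genes just named was called at day 3 on this scale. The subtraction moved the median of all tested genes by 1.33, 0.91, 0.58 and 0.35 at day 3, 7, 14 and 21, and on this scale limma called 88.8%, 72.2%, 11.9% and 0.519% of all genes, of which lower ones were 0.54%, 0.369% and 0.0205% of all genes on day 7, 14 and 21. On day 7 Bdh1 (-0.88), Ucp3 (-0.63), Mlycd (-0.50) and Oxct1 (-0.46) were still called lower after the subtraction, on day 14 Bdh1 (-1.15) and Lpin1 (-0.87) were, and at day 21 Bdh1 (-1.60) was, with Lpin1 at -0.82 and not called. Angptl4 was higher by 3.25 on this scale at day 3 and by 1.83 on day 7, and both were called.

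Rescaling all FPKM values to a common sum (TPM) raised the median of all tested genes by 0.51, 0.48, 0.29 and 0.12 over uninjured muscle at day 3, 7, 14 and 21. Relative to that shift the median of the 9 genes was -1.03, -1.10, -0.70 and -0.60. On the TPM scale itself 4 of 9 genes were called at day 3, with Angptl4 higher and Bdh1, Mlycd and Ucp3 lower. On day 7, 6 were called, with Angptl4 higher and Bdh1, Oxct1, Mlycd, Lpin1 and Ucp3 lower. Calls numbered 2 on day 14 (Bdh1 and Lpin1, lower) and 1 at day 21 (Bdh1, lower). The share of all genes called with TPM was 49.1%, 44.5%, 12.2% and 0.335% at day 3, 7, 14 and 21, and the share called lower was 2.2%, 1.43%, 0.731% and 0.0478%.

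Within the groups, 6 of the genes went up and down together from muscle to muscle. The 6 were set apart by these same correlations, so that all their pairs passed describes the choice. Deviations from group means may still hold differences in stage after injury, since 9 of the 27 samples lay nearer to another group's mean profile than to their own. How many pairs of other genes would pass was not tested. Each sample's deviation from its group mean was correlated for the 36 pairs of genes, and 17 pairs passed a permutation test (100000 permutations within groups, two-sided, Benjamini-Hochberg adjusted p under 0.05). All 15 pairs among Bdh1, Oxct1, Acat1, Mlycd, Acacb and Lpin1 were positive and passed, from r = 0.50 (Mlycd with Lpin1, rho = 0.46) to r = 0.79 (Acat1 with Mlycd). The 4 highest r all held Acat1: with Mlycd (rho = 0.79), Lpin1 (r = 0.78, rho = 0.79), Oxct1 (r = 0.78, rho = 0.76) and Acacb (r = 0.77, rho = 0.78) the permutation test gave an adjusted p of 0.0006, with 27 samples each. Without the 2 samples farthest from the median these r were 0.74, 0.72, 0.76 and 0.73. With own library totals 11 pairs passed in all, each among these 6 genes, and Bdh1 with Oxct1, Bdh1 with Lpin1, Oxct1 with Mlycd and Oxct1 with Lpin1 did not. Of the 15 pairs, 12 passed with quantile normalization, 14 with TPM and 14 after fibre marker subtraction, and all r stayed positive. Own totals, TPM and the subtraction each shift the genes of a sample by a shared amount, which can by itself raise or lower r. In all, 26 pairs passed with TPM and 32 after the subtraction, so the 14 pairs there do not bear on fibre content.

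On the deposited scale Ucp3 passed with Acat1 alone (r = 0.57, rho = 0.56, permutation test adjusted p = 0.0107, and r = 0.49 without the 2 farthest samples). Pdk4 passed with none of the other 8 genes on that scale, its r running from -0.25 to 0.37. Angptl4 went the other way from Oxct1 (r = -0.57, rho = -0.52, permutation test adjusted p = 0.0354, and r = -0.66 without the 2 farthest samples) and passed with no other gene. The pair of Ucp3 and Acat1 was lost with own totals, and that of Angptl4 and Oxct1 with own totals, TPM and pseudocounts of 0.1 and 0.5. Other scalings also added pairs that involve Ucp3, Pdk4 or Angptl4. Of the 26 pairs that passed with TPM and the 32 after fibre marker subtraction, 14 each were among the 6 genes. The samples share library depth and fibre content as well as these genes: within groups the fibre marker mean correlated with Oxct1 (r = 0.83, rho = 0.78, adjusted p = 0.00036 by permutation, 0.74 without the 2 farthest samples). With Acat1 it had r = 0.75 (rho = 0.81, adjusted p = 0.00288 by permutation, 0.71 without the 2 farthest). With Mlycd it had r = 0.69 (rho = 0.79, adjusted p = 0.0101 by permutation, 0.73 without the 2 farthest). With Ucp3 it had r = 0.56 (rho = 0.51, adjusted p = 0.0454 by permutation, 0.41 without the 2 farthest). With Bdh1 r was 0.44 (adjusted p = 0.0839 by permutation) and rho 0.59 (adjusted p = 0.00468 by permutation). Oxct1 also had r = -0.68 with the mean of macrophage and leukocyte markers (rho = -0.66, adjusted p = 0.00612 by permutation). The part of fibre and leukocyte content in the pairs was not tested, and the scalings given in the closing section cannot show it.

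**Figure D3:**
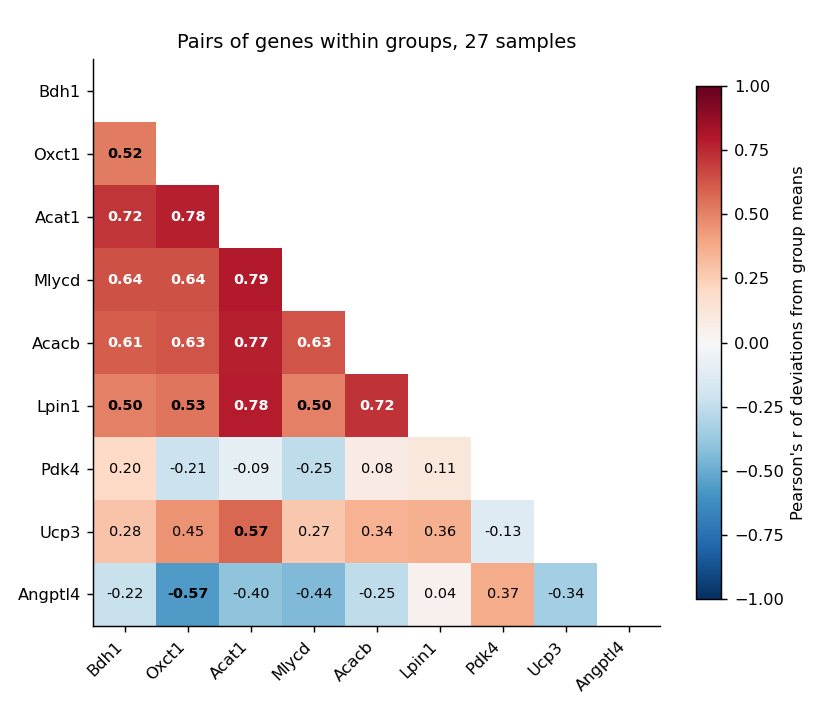
Pearson's r of each pair of genes over 27 samples after the group means were removed (color from -1 to 1, value in each cell, bold where the adjusted permutation p was under 0.05). On the deposited scale, shown here, the block of 15 pairs from Bdh1 to Lpin1 was positive throughout, from 0.50 to 0.79, and the Pdk4 row held no bold value.

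Pdk4 had relations of opposite sign within the 2 largest groups, none of which passed. Within the 6 day 7 muscles its r was -0.74 with Oxct1, -0.84 with Acat1, -0.74 with Lpin1 and -0.88 with Ucp3. Within the 6 day 14 muscles the same pairs had r = 0.57, 0.52, 0.74 and 0.49. These pairs were named after the values were seen. The other pairs, day 7 first, had r = -0.31 and 0.34 (Bdh1), -0.67 and 0.35 (Mlycd), -0.47 and 0.70 (Acacb) and 0.30 and -0.06 (Angptl4). The day 7 muscles with the most Pdk4, replicates 4 and 1 (51.7 and 51.4 FPKM), had 39.7 and 37.6 FPKM of Oxct1, whereas replicate 3, with the least Pdk4 (14.7), had 76.2. With 6 muscles each and 72 relations looked at, the lowest adjusted p by the exact permutation test was 0.217, so neither sign passed. Spearman's rho of the pairs with Oxct1, Acat1, Lpin1 and Ucp3 ran from -0.77 to -0.54 on day 7 and from 0.14 to 0.60 on day 14. Without the 2 farthest muscles r was -0.09 for Lpin1 on day 7 and -0.09 for Oxct1 and -0.43 for Acat1 on day 14. The r of those pairs thus rested in part on the muscles left out.

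Angptl4 followed leukocyte markers upward and fibre markers downward. Within groups its r with the mean of 10 macrophage and leukocyte markers such as Cd68 and Csf1r was 0.88 (rho = 0.72), with an adjusted p of 0.00216 by the permutation test over 36 relations, and 0.79 without the 2 farthest samples. With the fibre marker mean its r was -0.78 (rho = -0.68, adjusted p = 0.00288 by permutation, -0.64 without the 2 farthest). With adipocyte markers, which can also hold Angptl4, r was -0.25 (rho = -0.08, adjusted p = 0.622 by permutation, 0.15 without the 2 farthest). All 10 leukocyte markers were higher at day 3, 9 on day 7, 3 on day 14 and 0 at day 21, and their summed level was 23.7 to 36.4 FPKM in uninjured muscle and 461 to 2544 at day 3. In day 7 replicate 5, the sample with the most Angptl4, the mean of these markers was 5.52 on the log2 scale, against 1.77 to 3.73 in the other 5 muscles of that day. Of 7 adipocyte markers 0 were higher at day 3 and 4 on day 7. The part of these cells in the Angptl4 level was not tested.

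**Figure D4:**
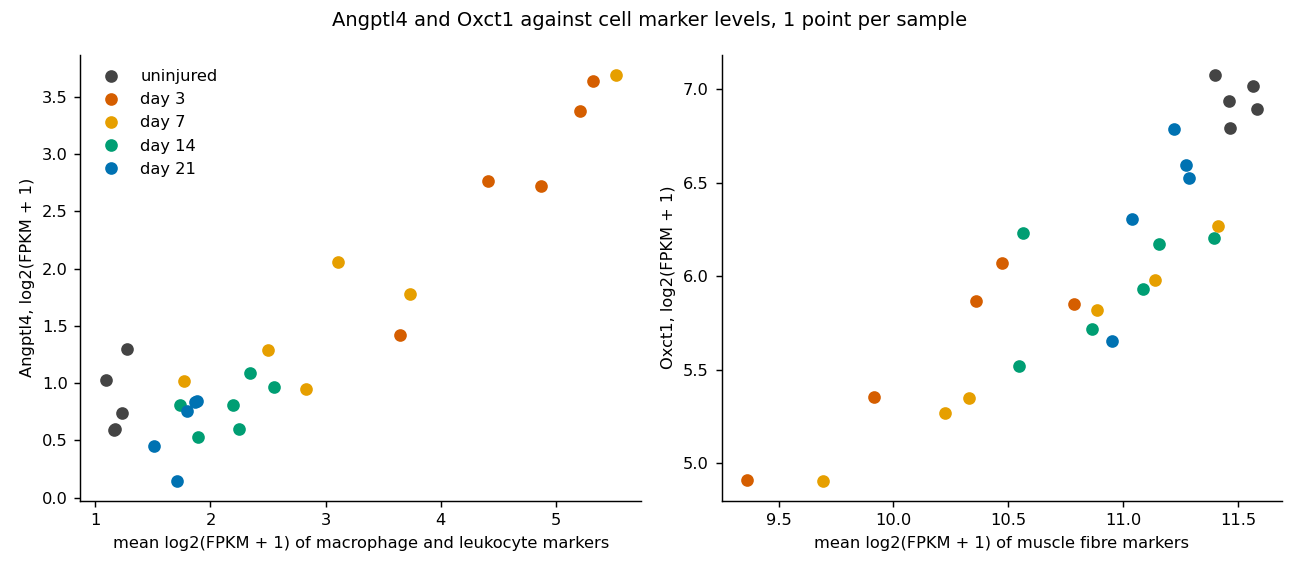
Angptl4 against the mean of 10 macrophage and leukocyte markers (left) and Oxct1 against the mean of 16 muscle fibre markers (right), both axes log2(FPKM + 1), 1 point per muscle colored by group. Angptl4 rose with the leukocyte markers in the day 3 and day 7 muscles (r = 0.88 within groups), and Oxct1 rose with the fibre markers (r = 0.83 within groups).

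Lpin1 was related to endothelial markers: within groups its r with 7 endothelial markers was -0.73 (rho = -0.68, adjusted p = 0.00475 by permutation, -0.59 without the 2 farthest samples), and with fibre markers 0.34 (adjusted p = 0.277 by permutation). Of the endothelial markers, 3 of 7 were lower at day 3 and 1 of 7 at day 21, and their part in the Lpin1 level was not tested. Of 8 oxidative or slow fibre markers, 3 were higher and 1 lower at day 3 and 0 passed at day 21.

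Several paralogs of these genes moved the other way. Levels are in FPKM and can be compared per length, and adjusted p-values are from limma with Benjamini-Hochberg correction over 14630 genes. Ucp2, the uncoupling protein of leukocytes and many other cells, had 2.40 ± 0.299 FPKM in uninjured muscle and rose to 32.1 ± 14.5 at day 3 (log2 difference 3.15 ± 0.40, adjusted p = 2.59e-06) and 14.1 ± 17.1 on day 7 (1.64 ± 0.39, adjusted p = 0.00325). The ratio of Ucp3 to Ucp2 was 13.1 to 16.99 in the 5 uninjured muscles, 0.122 to 0.858 at day 3, and 4.002 to 6.68 at day 21. Ucp2 therefore exceeded Ucp3 in every day 3 muscle and in no day 21 muscle.

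Among the pyruvate dehydrogenase kinases, Pdk2 was more abundant than Pdk4 in every group, at 201 ± 42.2 FPKM in uninjured muscle and 92.6 ± 22.5 at day 3 (log2 difference -1.13 ± 0.24, adjusted p = 6.04e-04). Pdk1 went from 7.15 ± 0.385 to 3.87 ± 1.17 (-0.77 ± 0.21, adjusted p = 0.00444). Both lost the call with TPM and changed sign when the fibre marker mean was subtracted. Pdk3 rose, from 0.431 ± 0.163 to 2.61 ± 0.440 (1.33 ± 0.27, adjusted p = 3.02e-04). The ratio of Pdk4 to Pdk3 was 115.6 to 292 in uninjured muscle and 7.38 to 11.4 at day 3.

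Acaca, the carboxylase form of fat-making tissues, stayed low, at 0.886 ± 0.209 FPKM in uninjured muscle and 0.743 ± 0.0524 at day 3 (log2 difference -0.11 ± 0.10, adjusted p = 0.427), a sign that flipped with TPM. The median ratio of Acacb to Acaca went from 26.8 in uninjured muscle to 11.9 at day 3 and 21.8 at day 21, with overlap between uninjured and day 21 muscles. Lpin3 rose from 1.14 ± 0.219 to 2.80 ± 0.676 FPKM at day 3 (0.81 ± 0.20, adjusted p = 0.00212) and 3.38 ± 1.01 on day 14 (1.01 ± 0.19, adjusted p = 0.00135), and Lpin2 rose from 0.245 ± 0.108 to 0.650 ± 0.192 at day 3 (0.40 ± 0.15, adjusted p = 0.0291), a call lost in 7 of the alternative settings. The ratio of Lpin1 to Lpin3 was 19.7 to 28.5 in uninjured muscle and 3.21 to 9.66 at day 21, without overlap.

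Of the ketone relatives, Acat2, the cytosolic thiolase of sterol synthesis, had 1.73 ± 0.598 FPKM in uninjured muscle and 2.84 ± 0.679 at day 3 (0.50 ± 0.19, adjusted p = 0.0375), a call lost in 9 of the alternative settings. Bdh2 stayed at or below 1.33 FPKM in all samples and was not called on the deposited scale, with means of 0.173 in uninjured muscle and 0.513 at day 3 (0.37 on the log2 scale, adjusted p = 0.106 by limma). It was called higher at day 3 in 5 alternative settings, among them TPM, own totals and fibre marker subtraction. Oxct2a, a testis form, was listed at 0 in all uninjured and day 3 muscles and had at most 7 reads elsewhere.

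**Figure D5:**
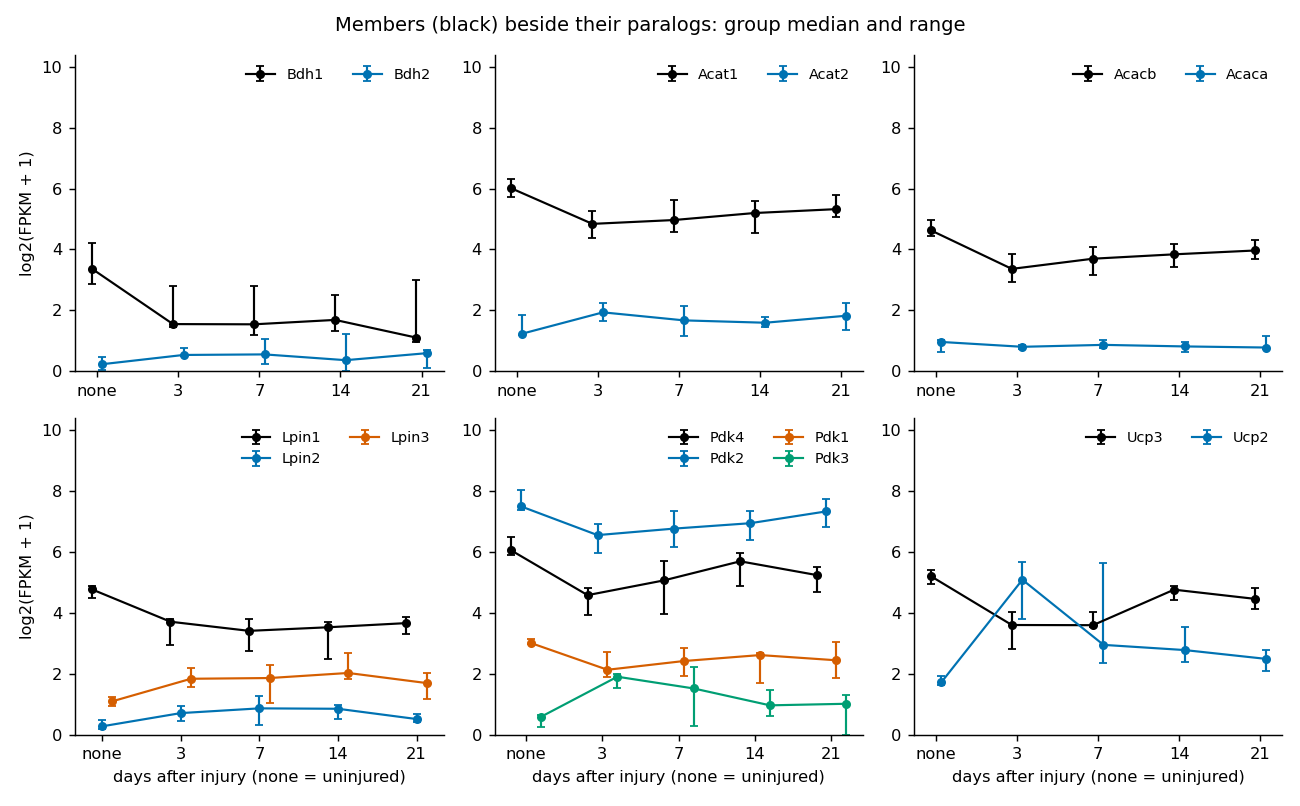
Level on the log2(FPKM + 1) scale (vertical axes) by days after injury for 6 of the genes (black) and their paralogs (colored), points for the group median and bars for the range over samples. Ucp2 crossed above Ucp3 at day 3, while Pdk2 stayed above Pdk4 and Acacb above Acaca throughout.

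Around the 9 genes, 121 genes in 9 pathway lists were examined, of which 109 passed the filter. At day 3 limma with Benjamini-Hochberg adjustment called 21 higher and 56 lower (background 43.2%, with 23.4% higher and 19.8% lower). It called 15 and 44 on day 7 (29.4%), 10 and 38 on day 14 (20.3%) and 4 and 8 at day 21 (3.43%). The split depended on the scale: with TPM it was 35 higher and 10 lower at day 3, 32 and 8 on day 7, 10 and 4 on day 14, and 3 and 0 at day 21, where the median of all genes had shifted as given above. After fibre marker subtraction it was 66 and 1, 46 and 3, 12 and 3, and 3 and 0. Of the genes named below as lower at day 3, Fabp3 alone was still called after that subtraction, and Slc16a1, Crat, Cpt2, Lpl, Klf15 and Txnip changed sign.

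In 2 lists nearly every gene fell at day 3. In the pyruvate dehydrogenase control list 11 of 13 genes fell at day 3 and 1, Pdk3, rose, with Mpc2 (-1.48 ± 0.34, adjusted p = 9.61e-04 by limma) and Mpc1 (-1.32 ± 0.25, adjusted p = 2.04e-04 by limma), both subunits of the mitochondrial pyruvate carrier, falling most. On day 14 8 of 13 were lower and at day 21 0 of 13 passed, with a median of -0.49. In the list of PPAR targets of fatty acid use 12 of 13 fell at day 3, led by Fabp3, the muscle fatty acid binding protein (-1.92 ± 0.33, adjusted p = 6.43e-05 by limma) and Eci1 (-1.59 ± 0.26, adjusted p = 3.47e-05 by limma), and at day 21 1 did, Hadha of the trifunctional beta-oxidation enzyme (-0.80 ± 0.20, adjusted p = 0.0248 by limma), a call lost in 9 of the alternative settings. With TPM 1 of 13 and 2 of 13 genes of these lists were lower at day 3, and their medians relative to all genes were -0.78 and -0.82, against -1.07 and -1.08 on the deposited scale. After subtraction of the fibre marker mean 0 of 13 and 1 of 13 were lower and 2 of 13 in each list were higher, and Fabp3 kept its call in every alternative.

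Malonyl-CoA acts on the carnitine shuttle, and that list held genes of both directions, as did the whole table (23.4% higher and 19.8% lower at day 3). At day 3 4 of 13 rose and 4 fell: the liver-type entry enzyme Cpt1a rose from 1.70 ± 0.154 to 4.70 ± 1.70 FPKM (1.02 ± 0.25, adjusted p = 0.00205 by limma) and Mid1ip1, a protein that activates acetyl-CoA carboxylase, rose by 1.27 ± 0.19 (adjusted p = 1.62e-05 by limma), while Crat (-1.30 ± 0.22, adjusted p = 5.52e-05 by limma) and Cpt2 (-1.14 ± 0.15, adjusted p = 2.59e-06 by limma) fell. At day 21 Mid1ip1 was still higher (1.10 ± 0.19, adjusted p = 0.0036 by limma) and Cpt2 still lower (-0.52 ± 0.15, adjusted p = 0.0458 by limma), the second lost in 20 of the alternative settings. With TPM 5 of the 13 were higher and 0 lower at day 3. Cpt1b, the muscle-type entry enzyme, was listed at 0.723 FPKM or less in every muscle and was not tested, and the read-through gene Gm44502 overlaps it on the same strand, so its reads may be split.

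In the ketone list, Slc16a1, the carrier that brings ketone bodies and lactate across the cell membrane, fell at day 3 (-0.82 ± 0.20, adjusted p = 0.00172 by limma) and was lower at day 21 (-0.71 ± 0.20, adjusted p = 0.0465 by limma). Its day 21 call was lost in 21 of the alternative settings, and with TPM it was not called at day 3. Fgf21, a hormone of fasting, rose at day 3 (1.26 ± 0.35, adjusted p = 0.00463 by limma), as did Aacs, which activates acetoacetate in the cytosol (0.58 ± 0.18, adjusted p = 0.0107 by limma). In all, 4 of 7 tested genes rose and 1 fell. With TPM 6 rose and 0 fell, and with quantile normalization 1 rose and 1 fell and Aacs was not called.

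Of the genes around Angptl4, its target lipoprotein lipase Lpl fell at day 3 (-1.27 ± 0.26, adjusted p = 4.24e-04 by limma), and so did the lipoprotein receptor Vldlr (-1.67 ± 0.24, adjusted p = 8.44e-06 by limma). Neither was called after fibre marker subtraction, where Lpl changed sign. Angptl1 (1.24 ± 0.32, adjusted p = 0.00258 by limma) and Angptl2 (0.88 ± 0.24, adjusted p = 0.00406 by limma) rose at day 3. At day 21, when Angptl4 lay within the uninjured range or below it, Angptl2 was higher (1.10 ± 0.24, adjusted p = 0.0126 by limma) and the fatty acid receptor Cd36 lower (-0.91 ± 0.18, adjusted p = 0.00594 by limma), and both lost the day 21 call with TPM and after fibre marker subtraction. Angptl2 and Angptl1 stand beside fibroblast markers, of which 5 of 7 were higher at day 3 and 2 of 7 at day 21, and their part was not tested. Of 11 tested genes 3 rose and 3 fell at day 3, beside 23.4% and 19.8% of all tested genes, and with TPM 5 rose and 2 fell.

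The lipid droplet list around Lpin1 was led by Plin5, the droplet protein of oxidative muscle, which fell at day 3 (-1.83 ± 0.28, adjusted p = 1.75e-05 by limma) and was lower at day 21 (-1.25 ± 0.28, adjusted p = 0.0146 by limma), the only one of 15 genes called then, and not with TPM. Plin4 fell too at day 3 (-1.45 ± 0.35, adjusted p = 0.00164 by limma), whereas Plin2, the droplet coat of many cell types, rose (1.26 ± 0.32, adjusted p = 0.00239 by limma). In the carrier list Slc25a4, the fibre form of the ADP/ATP carrier, fell (-1.55 ± 0.35, adjusted p = 8.71e-04 by limma) and Slc25a5, the form of proliferating cells, rose (1.5 ± 0.26, adjusted p = 5.77e-05 by limma). With TPM the lipid droplet list had 5 genes higher and 2 lower at day 3 in place of 3 and 6.

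Among 20 tested nuclear receptors and coactivators 12 fell at day 3 and 1 rose. Nr4a1 (-1.54 ± 0.44, adjusted p = 0.00616 by limma) and Rxrg (-1.47 ± 0.37, adjusted p = 0.00256 by limma) fell most, and Pparg was the one that rose (0.53 ± 0.15, adjusted p = 0.00627 by limma), a call lost with quantile normalization. At day 21 0 of 20 passed. Ppara, the receptor best known for inducing Pdk4 and Angptl4 in fasting, was below the filter in these muscles. With TPM 4 of the 20 were higher and 2 lower at day 3, Nr4a1 and Rxrg were not called, and the median of the list went from -0.58 to 0.03.

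The glucocorticoid and fasting response genes did not move as 1 set. At day 3 the fasting regulator Klf15 (-1.31 ± 0.29, adjusted p = 8.70e-04 by limma) and Txnip (-1.28 ± 0.22, adjusted p = 6.42e-05 by limma) fell with 3 other genes, while Mt1, a metal-binding stress protein (2.57 ± 0.45, adjusted p = 7.37e-05 by limma), and Ddit4, an inhibitor of mTORC1 (1.49 ± 0.29, adjusted p = 2.51e-04 by limma), rose with Cebpb. With TPM 6 were higher and 0 lower. At day 21 Ddit4 (1.69 ± 0.29, adjusted p = 0.0036 by limma) and Cebpb (0.91 ± 0.16, adjusted p = 0.0036 by limma) were higher and Txnip (-1.01 ± 0.22, adjusted p = 0.0132 by limma) and Zbtb16 (-0.82 ± 0.21, adjusted p = 0.0307 by limma) lower, together with Fkbp5, named after its value was seen. These 5 of 12 stand beside a background of 3.43%, and the median of the list was 0.04. With TPM and after fibre marker subtraction 2 of 12 were higher and 0 lower. Txnip lost its call in 3 alternative settings, TPM and fibre marker subtraction among them, and Zbtb16 lost its call in 14 of the alternative settings.

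Over all 27 muscles, the genes whose levels most resembled each of the 9 were found by Pearson's r of log2(FPKM + 1). These r values describe shared time courses and come from the same libraries. Oxct1 was closest to Atp5a1 (r = 0.96) and Ndufs1 (r = 0.95) of oxidative phosphorylation, Acat1 to Egln1 (r = 0.98) and Acadm (r = 0.97), Mlycd to Cpt2 (r = 0.95) and Decr1 (r = 0.94), and Acacb to Dnajc27 (r = 0.94) and Mfn1 (r = 0.93). Bdh1 was closest to Inpp5j (r = 0.90), Lpin1 to Adipor2 (r = 0.94) and Ucp3 to Cacna2d4 (r = 0.91), with Cpt2 second for Ucp3 (r = 0.89). Pdk4 had the least close partner, Smad3 (r = 0.83). Angptl4 was closest to Gla, Clec5a and Ctsb (r = 0.96 each), where Gla and Ctsb encode lysosomal enzymes and Clec5a a myeloid receptor.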

How the data were processed

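RNA from whole tibialis anterior muscle was sequenced as poly(A)-selected libraries that did not keep strand. The authors aligned reads with HISAT2 2.0.5, counted them with featureCounts 1.5.0-p3 and deposited FPKM per gene (GRCm38); those values are the only unit used. FPKM times gene length, divided by the value of 1 read in each sample (found from the smallest steps), gave whole reads (tolerance 0.01, checked up to 1000 reads), which summed to the library totals. Values were taken as log2(FPKM + 1), so fold changes of low genes are understated. The 14630 genes reaching 0.5 FPKM in 5 or more muscles entered 1 limma-trend fit of 27 samples in 5 groups (limma 3.58.1, R 4.3.3), with Benjamini-Hochberg adjustment within each comparison and a threshold of 0.05. The fit was tested on simulated data. Pairs of genes were compared after removal of group means with 100000 permutations within groups (scipy 1.17.1, Python 3.11.15). Promoters came from RefSeq. The genes, the pathway lists and the marker lists were chosen with earlier results of these data known. Named pathway genes were the 2 largest called rises and falls per list at day 3 and day 21, and named similar genes were the 3 with the highest r. Alternatives covered pseudocount, filter, scaling, variance model, replicate block and each sample left out.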

Additional observations from a re-analysis of the deposited data

Results flagged for a closer look

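For 5 genes the limma value of day 21 minus day 3 lay past the threshold (Benjamini-Hochberg adjusted p under 0.05), 1 of them, Angptl4, also with TPM. The value on the log2 scale was 0.76 ± 0.24 (SE) for Oxct1, 0.82 ± 0.16 for Mlycd, 0.63 ± 0.20 for Acacb, 0.94 ± 0.17 for Ucp3 and -2.18 ± 0.38 for Angptl4. These genes were chosen with results of the same samples known, so the values are descriptions and not independent tests. A sample was taken as apart from its group where its gap to the nearest other sample, as a share of the group's range, passed Dixon's 95% critical value, which chance passes in about 1 of 20 groups. Over 45 combinations of gene and group this was so for 2 samples on the FPKM scale and 0 on the log2(FPKM + 1) scale used in the fit. Bdh1 in day 21 replicate 3 was 7.01 FPKM, against 0.922 to 2.56 in the other 4 muscles, and Angptl4 in day 7 replicate 5 was 11.9 FPKM, against 0.935 to 3.16 in the other 5.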

How the results depend on the processing

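The numbers of the 9 genes called (9, 8, 7 and 5 at day 3, 7, 14 and 21, and 5 for day 21 against day 3) depended mainly on scaling. TPM gave 4, 6, 2, 1 and 1, own library totals 9, 7, 4, 2 and 2, fibre marker subtraction 1, 5, 2, 1 and 4, quantile normalization 2 at day 21, and no filter on low values 2 at day 21 and 3 for day 21 against day 3. The day 7 counts with TPM, own totals and fibre marker subtraction include Angptl4, called higher there and not in the main fit. Angptl4 was also called higher on day 7 with pseudocounts of 0.1 and 0.5, an FPKM minimum of 1 and both replicate blocks. Of all 14630 genes, own totals called 7152, 5772, 2563, 133 and 4798. At day 21 quantile normalization called 294 and a fit of the 2 groups alone 1477. Without the filter, 1579 of 54532 genes were called at day 14, 120 at day 21 and 2496 for day 21 against day 3. Of the pathway genes (77, 59, 48, 12 and 30), TPM called 45 at day 3, 14 at day 14 and 3 at day 21, own totals 25 and 4 at day 14 and 21, fibre marker subtraction 15 and 3 there and 69 for day 21 against day 3, no filter 31, 4 and 16 for the last 3 comparisons, quantile normalization 7 at day 21, and a fit of the 2 groups alone 29 at day 21. The 17 correlated pairs became 26 with TPM, 11 with own totals and 32 with fibre marker subtraction. With samples left out singly, the genes called ranged from 3 to 7 at day 21 (3 without uninjured replicate 1, 3 or 5 or day 21 replicate 1, 2 or 5) and from 3 to 5 for day 21 against day 3 (3 without day 3 replicate 4 or day 21 replicate 3), and pathway genes from 7 (without day 21 replicate 2) to 16 and from 17 (without day 3 replicate 4) to 34. Signs turned as follows. Fibre marker subtraction gave 0.19 (Acat1), 0.019 (Acacb) and 0.043 (Lpin1) at day 3, 0.041 (Ucp3) and 0.51 (Angptl4) at day 14, 0.10 (Angptl4) at day 21, and, for day 21 against day 3, -0.21 (Oxct1), -0.53 (Acat1), -0.15 (Mlycd), -0.35 (Acacb), -0.86 (Lpin1), -0.34 (Pdk4) and -0.030 (Ucp3). For day 21 against day 3, TPM gave -0.17 (Acat1) and -0.46 (Lpin1) and own totals -0.015 (Acat1) and -0.32 (Lpin1). At day 14 Angptl4 was 0.16 with TPM and 0.12 with own totals, and with samples left out singly ran from -0.12 to 0.059. Lpin1, day 21 against day 3, ran from -0.020 to 0.20, and was also -0.020 without day 3 replicate 5 and day 7 replicate 5 together, a setting chosen, like voom, after seeing the data. The cause was not tested. Same-numbered samples of different groups had a mean r of 0.0217 (51 pairs), and differently numbered ones -0.0033 (240 pairs). For 11 of 27 samples the closest sample of another group had the same number, and the share expected by chance was not worked out. Each sample's column name also ends in a letter, which departs from the numbering in day 21 replicate 4. Across groups, same-lettered samples had a mean r of 0.0296 (49 pairs) and others -0.0047 (242 pairs). Again, for 11 of 27 samples the closest had the same letter. Whether the numbers or the letters pair the samples is therefore not settled. The replicate block by number gave 9, 9, 7, 7 and 6 genes, and by letter 8 genes and 26 pathway genes at day 21. The whole table changed too. By number 6560, 4986, 3684, 795 and 4069 of all 14630 tested genes were called. By letter 1233 were called at day 21, against 502 in the main fit. Angptl4 at day 14 was 0.053 and 0.032 under these blocks. Angptl4, at 4 to 73 reads in uninjured, day 14 and day 21 muscles, is the gene most limited by depth.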
